A study of Mus musculus with 3 samples.

Results

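Gene expression was compared between 2 cultures of primary mouse embryonic fibroblasts, one given a hairpin vector (shRNA) that targets DNMT1 and the other the empty vector, with 1 Agilent 1-colour (Cy3) whole-genome array each. These are 2 of the 3 samples of the series. The members described are the genes and unnamed transcripts for which either array had a probe well above background, 19362 of 32529 on the array design, of which 13786 carried a gene symbol. Both cultures were Rb-/-;ATM-/-, so the control too lacked the retinoblastoma protein and the DNA damage kinase ATM, and both came from E10.0 embryos of C57BL/6J background. They were grown in MEM-α with serum, transduced, selected with puromycin at 4 µg/ml for 3 days and grown for a further 4 days before RNA was taken. The labels name 1 hairpin vector, do not give its sequence, and do not say how many embryos were used.

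DNMT1 copies CpG methylation onto the new DNA strand after replication, so its loss lowers methylation as cells divide. CpG methylation in promoters is known to keep many germline and tissue-restricted genes silent in fibroblasts. Most promoters with dense CpG are unmethylated in somatic cells, whereas promoters with few CpG are often methylated where the gene is not used. Genes of the germ line are known for their response to loss of DNMT1, and the account below is of the other families: matrix, growth factors, immune genes, metabolism, transport, receptors, lineage genes and the housekeeping machinery.

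The targeted gene was examined first. The Dnmt1 probe had a processed signal, in intensity units, of 4908 in the control and 956 in the Dnmt1 shRNA culture, and stood 4.58-fold lower. Rb1 had signals of 541 and 782 (log2 difference 0.70) and Atm 430.2 and 366 (log2 difference -0.07); where their probes lie relative to the deleted parts was not known, so they check nothing. Signals are given throughout in the order empty vector, Dnmt1 shRNA, and each fold is taken after both arrays were set to their own 75th percentile. With 1 array a side no difference has a p-value or a biological error, and the single spread at hand is technical: repeated spots of one probe had a median SD of 0.046 and 0.047 log2 units, and different probes of a gene a pooled SD of 0.21.

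Probes well above background made up 55.1% of 39410 in the control and 59.6% with Dnmt1 shRNA, and the lowest such signal was 37.8 and 25.1. Markers of fibroblasts, the labelled cell type, were present: 27 of 29 on the array were well above background in the control and 28 in the Dnmt1 shRNA culture. Of the 29, 6 were at least 2-fold higher (20.7%) and 2 lower (6.90%), against 4.94% and 1.49% over all genes with a symbol. Their median log2 difference was 0.25 and their summed signal 1.43e+06 and 1.44e+06. Thy1 and Dpt were above background with Dnmt1 shRNA alone, and Tcf21 in the control alone. Of 24 endothelial markers 8 were above background on both arrays, Pecam1, Vwf, Kdr, Flt1, Eng, Plvap, Egfl7 and Mmrn2, and a further 3 with Dnmt1 shRNA alone, Cldn5, Esam and Ecscr. The other 13, among them Cdh5, Tek and Tie1, were above it on neither, and the summed signal of the 11 was 15110 in the control and 16184 with Dnmt1 shRNA. Of 38 blood and immune markers 10 were above background on both arrays, among them Cd34, Cd4, Itgam, Csf1r and Fcer1g, 4 with Dnmt1 shRNA alone (Ikzf1, Kit, Klf1 and Hba-a1), 2 in the control alone (Ptprc and Igll1) and 22 on neither, Laptm5, Tyrobp and Spi1 included. Their summed signal was 8174 and 7358. Of 28 epithelial markers 12 were above background on both arrays, among them Cdh1, Esrp1 and Esrp2, 8 with Dnmt1 shRNA alone (Krt7, Krt8, Krt18, Krt20, Dsp, Grhl1, Grhl2 and St14), 1 in the control alone (Ehf) and 7 on neither, Epcam, Cldn3 and Cldn4 included. Of the 21 tested 10 were higher (47.6%), the highest share of the 105 gene lists, and 1 lower (median log2 difference 0.83). Over all genes with a symbol 4.94% were higher and 1.49% lower. In the control 8 of the 21 were not above background and 10 were in the lowest tercile of detected signals. At those levels 23.8% and 8.31% of genes with a symbol were higher. The 8 detected with Dnmt1 shRNA alone were tested only because of that array and could not be counted as lower. Over the 12 detected on both arrays the median was 0.49. Krt18, a keratin of simple epithelia, was at least 39.8-fold higher (15.3 and 1341), and the summed signal of the 21 was 21363 and 24433. In bulk RNA, fewer cells of a type and less RNA per cell cannot be told apart, and the part of such cells in the differences below was not tested.

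More genes were higher than lower in the Dnmt1 shRNA culture. A gene was counted when it differed at least 2-fold, and a gene dim on 1 array was set there at the detection level, which gives a lower bound ("at least"). Over all genes and transcripts 893 were higher (4.61%) and 339 lower (1.75%), and among genes with a symbol 681 were higher (4.94%) and 205 lower (1.49%). Of the counted differences 72.5% were higher, but 54.7% were with scaling to the array median, 59.8% after quantile normalization and 86.9% with normexp background. Of the genes with a symbol, 205 were at least 4-fold higher and 48 at least 4-fold lower, and 69 and 6 passed 10-fold. Among the 170 long non-coding RNAs 15 were higher and 4 lower. Of the genes named below, in the closing observations too, Apom, Btc, Cxadr, Epgn, Gjb2, Ivl, Lmx1a, Nr4a2, Ptgfr, Slc5a9, Stc2 and Syt3 were under 2-fold with normexp, Col5a3 with median scaling, Cdkn1a by its brightest probe, Ces2c, Nkd1 and Sly without the detection filter, Fthl17e after quantile normalization, and Atp9a, Cldn15, Fas, Mmp13, Pdgfra, Fam25c, Usp9y and Zbtb49 under 2 or more of the settings.

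**Figure D1:**
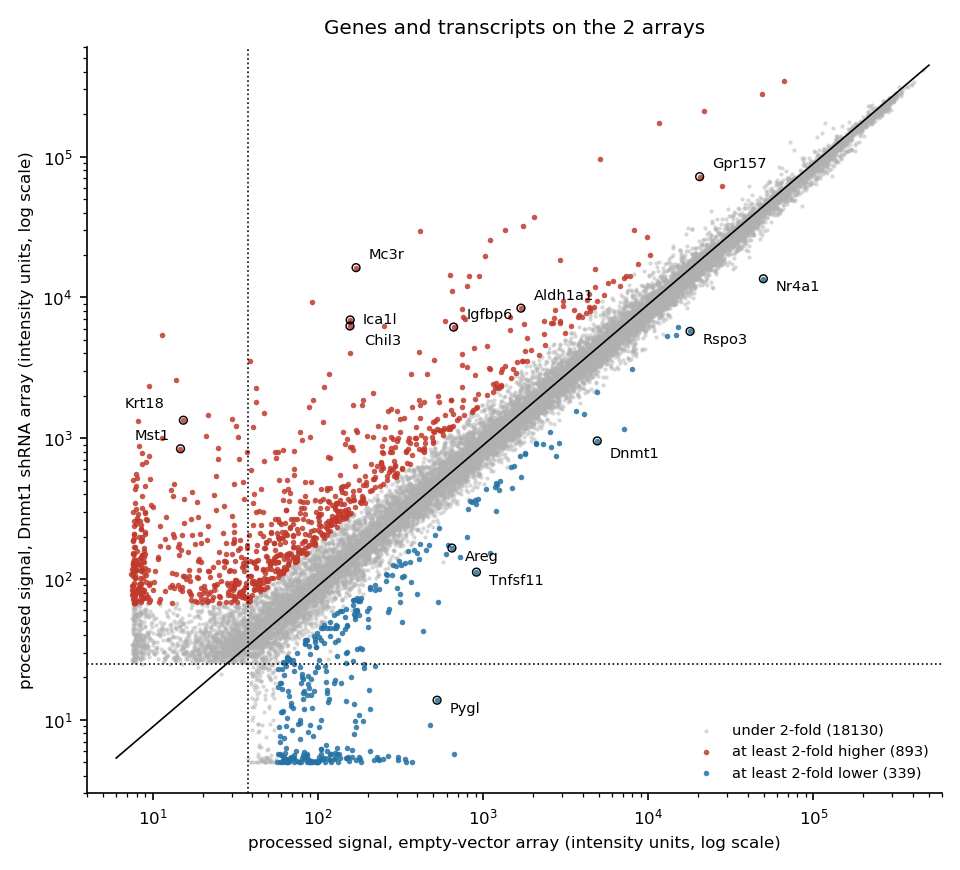
Processed signal of each tested gene or transcript in the empty-vector control (x) and with Dnmt1 shRNA (y), both in intensity units on log scales, with 893 higher in red and 339 lower in blue. The solid line marks equal signals after scaling and the dotted lines the lowest signal well above background (37.8 and 25.1); most coloured points lie at low control signal.

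The differences were concentrated among genes not detected or weak in the control. Of 1041 genes not well above background on the empty-vector array 23.8% were higher by their bounds; these had to be above background with Dnmt1 shRNA to be counted at all. In the lowest tercile of the detected control signals (up to 699.7) 8.31% were higher and 4.21% lower, in the middle tercile 1.55% and 0.47%, and in the highest tercile (from 4743) 0.33% and 0.14%. The middle 90% of log2 differences ran from -0.85 to 1.35 in the lowest tercile and from -0.43 to 0.37 in the highest. Repeated spots had a median SD of 0.076 and 0.077 in the lowest tercile and 0.039 and 0.040 in the highest, on the 2 arrays. A 2-fold difference in a bright gene such as Nr4a1, Lum or Gpr157 is therefore rarer on these arrays than one in a dim gene.

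The share of genes that differed also varied with the CpG content of their promoters. To show what the classes look like, RefSeq promoter windows (GRCm38.p6) are printed for a pair of genes in each class. Each of these genes had a large difference measured on both arrays. Germline genes and some others were left out of the choice, so a pair need not be the largest of its class. Each window runs 5′ to 3′ along the gene's strand, from 250 bases before the start to 50 after, with each CpG in capitals.
Chil3 (CpG-poor): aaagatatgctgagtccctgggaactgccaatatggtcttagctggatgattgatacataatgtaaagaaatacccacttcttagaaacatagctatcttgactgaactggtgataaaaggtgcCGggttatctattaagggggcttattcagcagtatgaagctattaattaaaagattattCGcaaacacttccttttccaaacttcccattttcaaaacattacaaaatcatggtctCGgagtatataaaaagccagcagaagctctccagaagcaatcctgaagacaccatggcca
Olfr1466 (CpG-poor): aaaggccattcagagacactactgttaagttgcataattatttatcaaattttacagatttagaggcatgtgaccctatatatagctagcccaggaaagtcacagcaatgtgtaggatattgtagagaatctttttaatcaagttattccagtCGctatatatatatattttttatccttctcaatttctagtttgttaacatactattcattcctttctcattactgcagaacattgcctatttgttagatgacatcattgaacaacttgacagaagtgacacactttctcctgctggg
Mc3r (intermediate): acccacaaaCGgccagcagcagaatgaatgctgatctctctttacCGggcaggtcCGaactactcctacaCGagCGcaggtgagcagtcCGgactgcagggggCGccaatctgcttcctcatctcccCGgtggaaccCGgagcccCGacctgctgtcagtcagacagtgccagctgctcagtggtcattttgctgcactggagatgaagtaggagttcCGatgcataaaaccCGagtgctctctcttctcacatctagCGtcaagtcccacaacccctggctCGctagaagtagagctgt
Slc29a4 (intermediate): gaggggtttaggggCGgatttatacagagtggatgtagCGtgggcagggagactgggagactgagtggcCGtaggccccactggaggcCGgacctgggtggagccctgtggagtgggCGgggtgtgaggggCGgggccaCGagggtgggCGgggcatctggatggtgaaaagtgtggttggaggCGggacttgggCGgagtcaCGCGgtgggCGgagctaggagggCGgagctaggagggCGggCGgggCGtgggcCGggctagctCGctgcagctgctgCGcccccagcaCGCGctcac
Ica1l (CpG-rich): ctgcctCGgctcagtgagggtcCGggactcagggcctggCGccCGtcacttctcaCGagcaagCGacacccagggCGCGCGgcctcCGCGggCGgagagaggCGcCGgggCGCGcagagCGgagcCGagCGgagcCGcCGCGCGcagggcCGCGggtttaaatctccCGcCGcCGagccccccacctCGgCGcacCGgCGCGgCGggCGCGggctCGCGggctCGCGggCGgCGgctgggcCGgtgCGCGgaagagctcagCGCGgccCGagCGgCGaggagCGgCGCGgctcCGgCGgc
Dhrs3 (CpG-rich): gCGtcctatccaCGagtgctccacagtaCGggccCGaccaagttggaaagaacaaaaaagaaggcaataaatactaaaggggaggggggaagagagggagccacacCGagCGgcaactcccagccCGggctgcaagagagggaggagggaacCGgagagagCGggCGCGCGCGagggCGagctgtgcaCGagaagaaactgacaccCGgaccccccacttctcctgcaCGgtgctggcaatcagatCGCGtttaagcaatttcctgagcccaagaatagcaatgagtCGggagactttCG

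These windows lie at chr3:106167515-106167814 on the minus strand, chr19:13341510-13341809 (plus), chr2:172248242-172248541 (plus), chr5:142701851-142702150 (plus), chr1:60043073-60043372 (minus) and chr4:144892577-144892876 (plus). They hold 3 and 1 CpG in the CpG-poor pair, 14 and 22 in the intermediate pair and 55 and 21 in the CpG-rich pair. Chil3, a chitinase-like protein of macrophages, went from a signal of 156 to 6259 (45.0-fold), and Olfr1466, an odorant receptor, from 1099 to 25701 (26.2-fold). Mc3r, a melanocortin receptor, went from 170.0 to 16255 (107.2-fold) and Slc29a4, a monoamine transporter of the plasma membrane, from 61.8 to 831 (15.1-fold). Ica1l had signals of 157 and 6914 (49.5-fold), and Dhrs3, which reduces retinal to retinol, 89.4 and 1019 (12.8-fold).

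Over the 10981 tested genes with a window, CpG was counted by its ratio of observed to expected: below 0.4 was CpG-poor, at least 0.75 with at least 55% G and C was CpG-rich, and the rest were intermediate. Of all 27025 genes with a window in the table, 13263 fell in the CpG-poor, 7234 in the intermediate and 6528 in the CpG-rich class. Among tested genes 236 of 1909 CpG-poor ones were higher (12.4%), against 178 of 3990 intermediate (4.46%) and 76 of 5082 CpG-rich ones (1.495%). The lower genes followed the same order, at 3.93%, 1.43% and 0.47%. Because CpG-poor genes are also dimmer, the shares were taken within levels of control signal. In the lowest tercile of control signals 12.8% of CpG-poor, 7.11% of intermediate and 3.70% of CpG-rich genes were higher, and in the middle tercile 5.78%, 1.99% and 0.32%. The shares of lower genes had the same order, at 7.39%, 4.23% and 1.43% in the lowest tercile and 1.02%, 0.48% and 0.27% in the middle. Among genes not above background in the control the order did not hold: 21.8% of CpG-poor, 28.6% of intermediate and 18.2% of CpG-rich genes were higher. In the highest tercile 0 of 213 CpG-poor, 5 of 1328 intermediate and 0 of 1900 CpG-rich genes were higher. Without the germline lists the overall shares were 12.1%, 3.94% and 1.43%. Methylation itself was not measured.

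**Figure D2:**
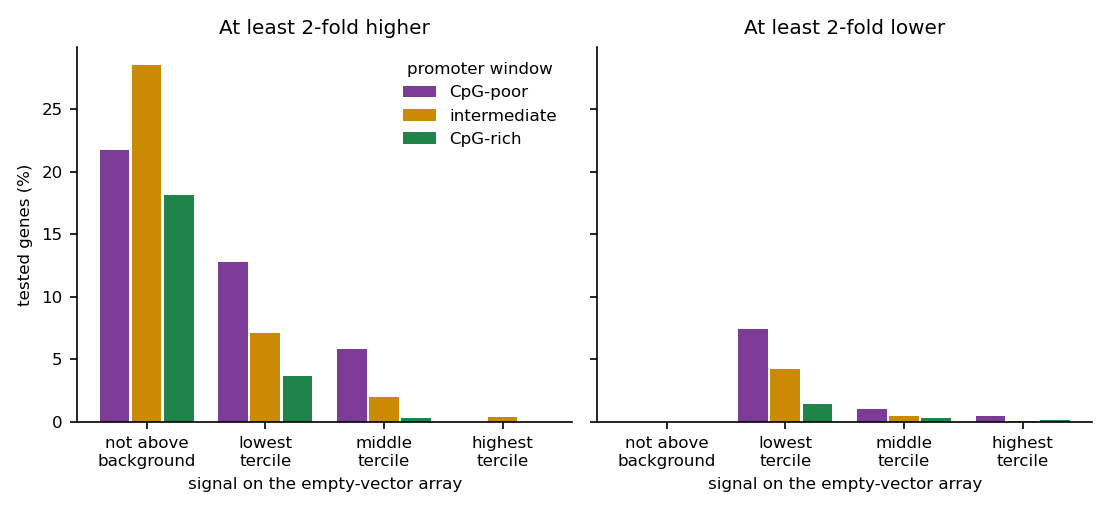
Share of tested genes (%, y) at least 2-fold higher (left) or lower (right) in the Dnmt1 shRNA culture, by signal on the empty-vector array (x) and promoter CpG class (colours). CpG-poor genes had the tallest bars in the lowest and middle terciles (12.8% and 5.78% higher), and genes not above background in the control cannot be counted as lower.

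Matrix genes were counted by list, beside 4.94% higher and 1.49% lower over all genes with a symbol, where 76.9% of the counted genes were higher. Small leucine-rich proteoglycans bind collagen fibrils and growth factors. Of 14 tested members 5 were higher and 0 lower, the median log2 difference was 0.79 against -0.01 over all genes with a symbol, and all 13 members detected on both arrays were above 0. Fmod (fibromodulin) had signals of 369 and 1667 (5.07-fold higher), Podn (podocan) 191 and 535 (3.14-fold) and Lum (lumican), already among the brightest genes of the control, 27744 and 61476 (2.49-fold). Of 31 collagen chains 4 were higher and 0 lower (median 0.27). Both probes of Col18a1, the basement membrane collagen from which endostatin is cut, were higher, with mean signals of 1445 and 5827 (4.52-fold), and Col5a3, a chain of fibril-forming type V collagen, went from 1710 to 3527 (2.31-fold).

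Matricellular proteins sit in the matrix without forming its fibres and modulate how cells attach and respond. Of 28 tested, 5 were higher and 1 lower (median 0.43). Comp, a pentameric glycoprotein of cartilage and tendon, had signals of 256 and 1203 (5.27-fold higher), Ccn5, a growth-restraining CCN protein, 8201 and 30272 (4.14-fold), and Matn4 (matrilin 4) 142 and 454 (3.59-fold) by both of its probes. Of 27 elastic fibre proteins 5 were higher and 0 lower, among them elastin (Eln, 420.4 and 1054, 2.81-fold) and fibulin 7 (Fbln7, 57.6 and 267, 5.21-fold). The median of this list was 0.15, and -0.09 with scaling to the array median, which lowers the median of all genes by a similar amount, to -0.24. Of 21 integrins 4 were higher and 0 lower, and the collagen receptor subunit Itga11 went from 3034 to 8648 (3.20-fold).

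Enzymes that remodel the matrix differed both ways. Of 14 metalloproteinases and inhibitors 3 were higher and 1 lower: stromelysin 1 (Mmp3) had signals of 45.3 and 242 (5.98-fold higher), whereas collagenase 3 (Mmp13) was at least 2.32-fold lower. Of 29 ADAM and ADAMTS proteases 3 were higher and 0 lower, led by Adamts15 (81.7 and 321, 4.41-fold), which cleaves proteoglycans. The list for hyaluronan, heparan and chondroitin had 3 of 50 genes higher (6.0%) and 1 lower (2.0%); its median was 0.11, and -0.11 with scaling to the array median. Has2, the main hyaluronan synthase of fibroblasts, was 2.20-fold lower at signals of 15130 and 6130, and the hyaluronidase Hyal1 was 5.19-fold higher at 77.3 and 357. Both probes of Cemip, which depolymerises hyaluronan, were higher (287 and 693, 2.71-fold). The collagen-degrading protease Ctsk (cathepsin K) was at least 15.9-fold higher, with signals of 24.2, below detection, and 537, the single member of 39 lysosomal hydrolases past 2-fold.

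Growth factor genes differed by family, beside 4.94% higher and 1.49% lower over all genes with a symbol. Ligands of the EGF receptor family drive proliferation and wound repair, and they stood on the lower side: of 14 ligands and receptors 0 were higher and 4 lower (median -0.14). The 4 were Epgn (epigen, 315 and 68.4, 4.11-fold lower), Ereg (epiregulin, 2568 and 865, 2.65-fold), Areg (amphiregulin, 647 and 166, 3.48-fold) and Btc (betacellulin, 412 and 177, 2.07-fold). These 4 genes lie next to each other on chromosome 5, in the order Epgn, Ereg, Areg, Btc among tested genes, and were the 1 run of at least 3 neighbours that was lower. All 4 were detected on both arrays. With normexp background, which adds an offset and so shrinks the differences of dim genes, Epgn stood at -0.70 and Btc at -0.82 on the log2 scale and 2 of the 14 were lower.

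TGF-beta family ligands and receptors stood on the other side, with 5 of 35 higher (14.3%), 0 lower and a median of 0.36. Over all genes with a symbol 4.94% were higher and 1.49% lower. Gdf15, a stress cytokine, had signals of 747 and 8245 (12.4-fold higher), and Amhr2, the receptor of anti-Müllerian hormone, was at least 21.3-fold higher at 33.3 and 717. Of 13 antagonists of BMP and activin 3 were higher and 0 lower, among them gremlin 1 (Grem1, 339 and 809, 2.68-fold). In the axis of PDGF, VEGF, HGF and angiopoietins 5 of 31 were higher and 0 lower. Angpt2, which loosens vessel walls by opposing TIE2 signalling, went from 588 to 6780 (12.9-fold). Mst1, macrophage-stimulating protein, a liver-made ligand of the receptor RON, went from 14.7, below detection, to 841 by its 2 probes (at least 24.9-fold). The receptor Pdgfra, a marker of mesenchyme, had 131 and 264 (2.26-fold). In the control 4 of the 35, 3 of the 13 and 4 of the 31 genes of these lists were not above background. A further 16, 3 and 11 were in the lowest tercile. At those levels 23.8% and 8.31% of genes with a symbol were higher.

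The insulin-like growth factor Igf1 was higher by all of its 4 probes, with mean signals of 390.1 and 1000 (2.88-fold), and Igfbp6, which binds IGF2, went from 663 to 6151 (10.4-fold). Stc2, a secreted inhibitor of the protease that frees IGF from its binding proteins, was at least 5.44-fold lower (153 and 5.48). In this list 4 of 24 were higher (16.7%) and 1 lower (4.17%), against 4.94% and 1.49% over all genes with a symbol. Among Wnt ligands and receptors 3 of 28 were higher and 1 lower. Wnt5b (1089 and 3143, 3.24-fold) and Wnt10b (126.1 and 391, 3.48-fold) were higher, and Wnt10a at least 5.93-fold. Rspo3, a secreted enhancer of Wnt signalling, was 2.78-fold lower from a high level (17905 and 5737). The Wnt antagonist Frzb was at least 5.22-fold lower and the feedback inhibitor Nkd1 4.19-fold higher (71.5 and 267). Of 56 semaphorins, plexins, ephrins and Slits, guidance cues for growing axons and vessels, 8 were higher and 1 lower, with Sema3b at 1850 and 5180 (3.14-fold). In the control 1 of the 24 IGF, 3 of the 28 Wnt and 5 of the 56 guidance genes were not above background. A further 10, 9 and 25 were in the lowest tercile.

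Among immune genes the lists differed in how often they were counted. Complement and coagulation genes had 6 of 31 higher (19.4%, against 4.94% over all genes with a symbol) and 0 lower (median 0.41). The C1 protease C1s1, which starts the classical complement pathway, went from 1451 to 7290 (5.64-fold), and C4b, the next component, from 534 to 1996 (4.19-fold). Of 32 genes of the MHC and antigen presentation 5 were higher (15.6%) and 0 lower (median 0.42). The class II chain H2-Eb1 had signals of 149 and 983 (7.38-fold) and the class I-like gene Mr1 was at least 3.39-fold higher. Psmb8, an immunoproteasome subunit, had 751 and 1871 (2.80-fold), and it was the 1 of 46 proteasome subunits past 2-fold. The interferon-stimulated list (72 genes, 5 higher or 6.94%, 2 lower or 2.78%, median 0.10) lay near the shares over all genes and included a bright member: Ifi27 went from 9763 to 27040 (3.11-fold).

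Chemokines and cytokines went both ways, beside 4.94% higher and 1.49% lower over all genes with a symbol. Of 31 chemokines and receptors 4 were higher and 1 lower; Cxcl5, a neutrophil attractant, had 77.5 and 1101 (15.9-fold higher), and Cxcl10, an interferon-induced attractant of T cells, 321 and 103 (2.78-fold lower). Among 28 members of the TNF superfamily and its receptors 4 were higher and 1 lower. The receptor GITR (Tnfrsf18) had 366 and 2868 (8.79-fold higher), and Fas, a death receptor and among the brighter members, 7695 and 14148 (2.06-fold). Tnfsf11 (RANKL), which drives osteoclast formation, was 7.26-fold lower at 911 and 112. Of 43 BCL2 and caspase family genes 7 were higher and 1 lower. Casp1, the inflammasome caspase, was at least 7.88-fold higher (9.03, below detection, and 266), and its substrate Gsdmd, the pore-former of pyroptosis, 3.18-fold (178 and 504). The inflammasome sensor Naip2 went from 114 to 444 (4.38-fold), among 7 of 41 pattern recognition genes that were higher and 1 that was lower. In the control 7 of the 31 chemokine, 5 of the 28 TNF, 3 of the 43 BCL2 and caspase and 12 of the 41 pattern recognition genes were not above background. A further 13, 14, 13 and 16, in that order, were in the lowest tercile. At those levels 23.8% and 8.31% of genes with a symbol were higher.

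**Figure D3:**
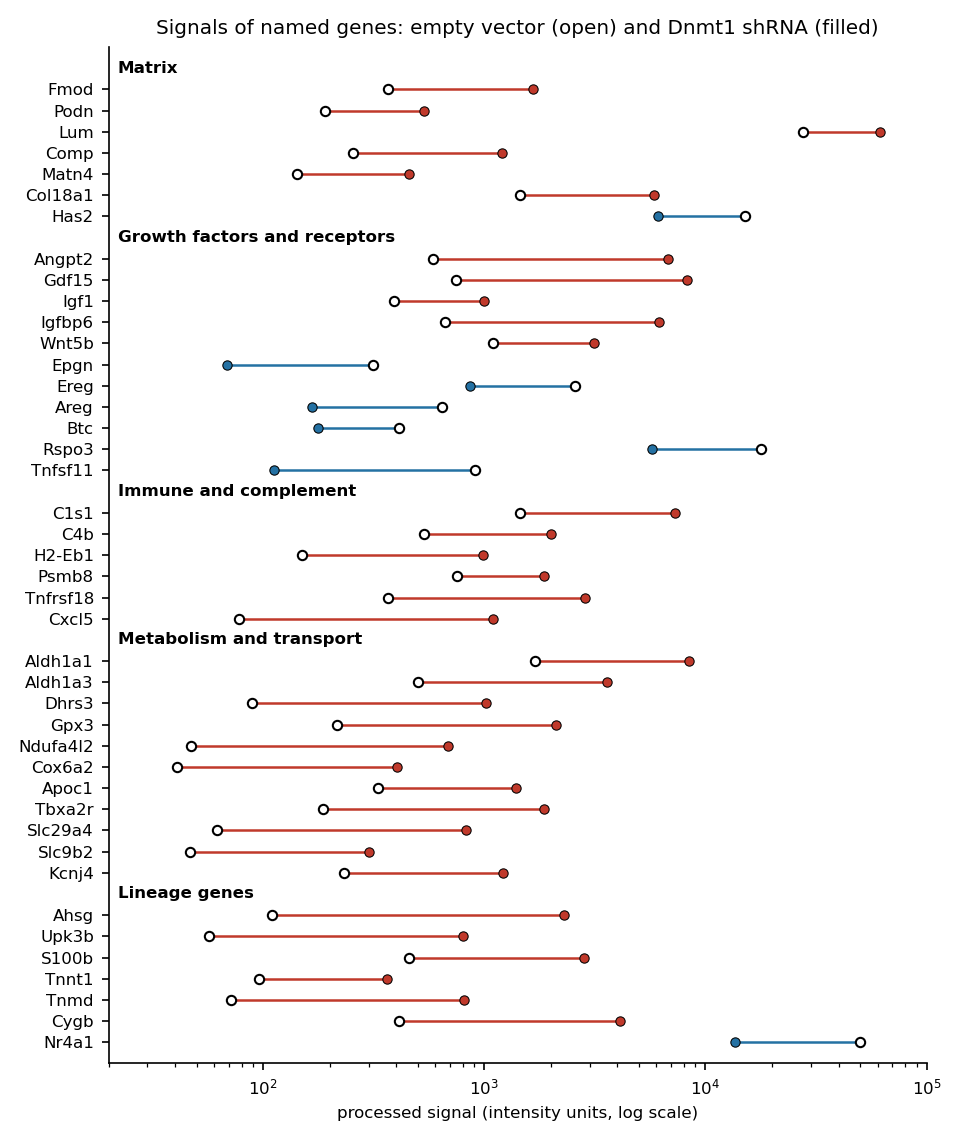
Processed signals (x, intensity units on a log scale) of 42 named genes detected on both arrays (y), in the control (open circles) and with Dnmt1 shRNA (filled; red higher, blue lower). The 4 EGF ligands Epgn, Ereg, Areg and Btc, with Has2, Rspo3, Tnfsf11 and Nr4a1, run to the left, and the other genes run to the right.

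In metabolism, enzymes of retinoid and aldehyde conversion had 7 of 48 higher and 0 lower (median 0.12, and -0.07 with scaling to the array median). Over all genes with a symbol 4.94% were higher and 1.49% lower. Of the 48, 3 were not above background in the control and 17 were in the lowest tercile. Retinoic acid is made from retinal by the ALDH1A enzymes and acts through nuclear receptors. Aldh1a1 went from 1694 to 8382 (5.55-fold) and Aldh1a3 from 503 to 3599 (8.03-fold), and the folate enzyme Aldh1l1 from 185 to 1728 (10.5-fold). Together with Dhrs3, the counted members thus include a pair of enzymes that make retinoic acid and one that draws retinal away from it. Of 59 genes of glutathione and peroxide metabolism 6 were higher and 0 lower, although the list's median was 0. The extracellular peroxidase Gpx3 had 215 and 2099 (10.964-fold), Mgst2 215 and 1021 (5.34-fold) and Gstk1 243 and 880.4 (4.07-fold).

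Cytochrome P450, UGT and related enzymes of drug and steroid metabolism differed in both directions, with 8 of 62 higher (12.9%) and 6 lower (9.68%). Over all genes with a symbol 4.94% were higher and 1.49% lower. Of the 62, 12 were not above background in the control and 35 were in the lowest tercile. At those levels 23.8% and 8.31% of genes with a symbol were higher. The carboxylesterase Ces2c went from 145 to 915 (7.08-fold higher), and Cyp7b1, an oxysterol hydroxylase, from 303 to 5.22, which was below detection (at least 10.8-fold lower). Prostaglandin and leukotriene genes had 7 of 37 higher and 3 lower. Akr1c13, of the aldo-keto reductases that act on steroids and prostaglandins, had 80.5 and 967 (13.5-fold higher), and the thromboxane receptor Tbxa2r 186 and 1866 (11.2-fold), while the prostaglandin F receptor Ptgfr had 146 and 44.0 (2.97-fold lower). Apolipoproteins, lipases and fatty acid carriers had 8 of 40 higher and 1 lower, among them Apoc1 (330.4 and 1384, 4.70-fold) and the lipid droplet coat protein Plin4 (51.6 and 216, 4.68-fold). In the control 9 of the 37 prostaglandin and leukotriene genes and 5 of the 40 lipid genes were not above background. A further 10 and 21 were in the lowest tercile. Pdk4, which switches off pyruvate oxidation in fasting, was the 1 of 48 citrate cycle and fatty acid oxidation genes past 2-fold (273 and 613, 2.52-fold).

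In oxidative phosphorylation and translation the genes past 2-fold were isoforms rather than core subunits. Of 92 oxidative phosphorylation subunits 4 were higher and 0 lower, while 66 of the 91 detected on both arrays lay below 0. The list's median of -0.07 was close to the -0.09 of the highest tercile of control signals, which held 78 of its members, and was above 0 after quantile normalization and cyclic loess. The 4 were Ndufa4l2, a hypoxia-induced paralogue (47.2 and 688, 16.4-fold), Cox6a2, the heart and muscle form of subunit VIa (41.0 and 404, 11.1-fold), and the testis forms Cox6b2 (352 and 955, 3.05-fold) and Cox7b2 (at least 4.41-fold). Of 83 cytosolic ribosomal proteins 2 were higher and 0 lower, and both are paralogues of core proteins: Rpl39l, a testis form, went from 8.09 to 1324 (at least 39.3-fold) and Rps4l from 15.5 to 371 (at least 11.004-fold). Of 35 genes of glycolysis and the pentose phosphate pathway 2 were higher and 0 lower, among them the lactate exporter Slc16a3, 2.42-fold by both of its probes (277 and 597).

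Transporters were counted by family. Of 250 solute carriers 20 were higher (8.0%) and 6 lower (2.40%), against 4.94% and 1.49% over all genes with a symbol. In the control 27 of the 250 were not above background and 103 were in the lowest tercile. At those levels 23.8% and 8.31% of genes with a symbol were higher. Slc28a2, a sodium-driven nucleoside carrier, went from 8.92 to 454 (at least 13.5-fold), the sulfate carrier Slc13a4 from 34.9 to 485 (at least 14.4-fold) and the sodium-proton antiporter Slc9b2 from 46.6 to 300.1 (7.22-fold). Slc5a9, a sodium-dependent sugar carrier, was 5.15-fold lower (184 and 31.9). No ABC transporter passed 2-fold, with 0 of 33 higher and 0 lower. All 33 were above background in the control, with 12 in the lowest tercile, 12 in the middle and 9 in the highest. Across those terciles 8.31%, 1.55% and 0.33% of genes with a symbol were higher. Potassium channels had 5 of 33 higher and 1 lower, led by the inward rectifier Kcnj4 (232 and 1211, 5.86-fold). Of these 33 channels, 10 were not above background in the control and 20 were in the lowest tercile. The ATP-gated channels P2rx5 (56.3 and 213, 4.25-fold) and P2rx7 (70.2 and 244.6, 3.91-fold, both probes) were higher as well.

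Receptors of the sensory organs were among the families with calls on both sides. Of 1351 odorant, vomeronasal and taste receptor genes on the array 150 were tested, and 19 of these were higher and 15 lower (12.7% and 10.0%). Over all genes with a symbol the shares were 4.94% and 1.49%. In the control 61 of the 150 were not above background and 82 were in the lowest tercile. At those levels 23.8% and 8.31% of genes with a symbol were higher, and in the lowest tercile 4.21% were lower. Tas2r113, a bitter taste receptor, had signals of 820.3 and 14224 (19.5-fold higher), and Vmn2r107, a vomeronasal receptor, 337 and 5.30 (at least 11.997-fold lower). Of the 150, 89 were above background in the control and 129 with Dnmt1 shRNA, and receptors of this family are similar enough in sequence that a probe may catch a relative. Other G-protein coupled receptors had 10 of 103 higher (9.71%) and 3 lower (2.91%). Of these 103, 19 were not above background in the control and 57 were in the lowest tercile. Besides Mc3r, Gpr157 went from an already high 20453 to 71974 (3.95-fold), S1pr5 was at least 3.26-fold higher, and Gpr84, an inflammatory receptor of fatty acids, was at least 5.98-fold lower (168 and 9.85). Ramp3, which alters the ligand preference of the calcitonin receptor family, was 3.91-fold lower (268 and 61.1).

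Lists of genes that mark other lineages were counted beside 4.94% higher and 1.49% lower over all genes with a symbol. Many of their members were dim in the control. Of the 36 muscle genes 13 were not above background there and 11 were in the lowest tercile, and of the 66 neural genes 11 and 37. At those levels 23.8% and 8.31% of genes with a symbol were higher. Keratins and desmosome proteins had 10 of 33 higher and 0 lower; the list shares keratins with the epithelial markers, and 25 members were above background in the control and 33 with Dnmt1 shRNA. Of 23 placental genes 9 were higher and 2 lower. The placental prolactin-like hormone Prl2c5 went from 115 to 358 (3.49-fold), whereas Gjb2 was at least 3.09-fold lower. Of 34 liver and plasma protein genes 7 were higher and 0 lower, with Ahsg (fetuin A) at 109 and 2292 (23.5-fold). Of 36 smooth and striated muscle genes 4 were higher and 1 lower (median 0.36), among them the slow skeletal troponin Tnnt1 (95.9 and 364, 4.25-fold). Tnmd (tenomodulin), a tendon protein, went from 71.8 to 809 (12.6-fold). Neural and glial genes had 6 of 66 higher and 6 lower: the calcium-binding protein S100b went from 456.4 to 2834 (6.96-fold higher), and the synaptotagmin Syt3 went from 162 to 26.3 (5.51-fold lower). Of 22 lens and retina genes 4 were higher and 0 lower, with the beaded filament protein Bfsp1 at least 9.78-fold. Cytoglobin (Cygb), an oxygen-binding globin of fibroblasts, went from 411 to 4090 (11.2-fold).

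Lists of transcription regulators lay on both sides of the shares over all genes. Of 389 numbered zinc finger genes 5 were higher and 4 lower (1.29% and 1.03%), both shares below those over all genes, yet 250 of the 371 detected on both arrays lay above 0 (median 0.10; -0.13 with scaling to the array median and -0.01 with spike-in scaling, while the median of all genes moved to -0.24 and -0.12). Of 141 genes of Polycomb, SWI/SNF, deacetylases and demethylases 0 were higher and 1 lower; that was Prmt8, a neuronal arginine methyltransferase, at least 8.29-fold. Homeobox genes outside the HOX clusters had 6 of 64 higher (9.38%) and 1 lower (1.56%). The LIM homeobox genes Lhx3 (67.3 and 409, 6.82-fold) and Lhx2 (at least 5.47-fold) were higher, and Lmx1a was at least 4.67-fold lower. Foxs1 went from 314 to 1359 (4.86-fold), and the nuclear receptors Nr4a1 and Nr4a2, early-response factors, were lower: Nr4a1 at 49731 and 13552 (3.27-fold) and Nr4a2 at 1477 and 621 (2.12-fold). No SOX factor (0 of 9) and no IRF, STAT or NF-kB factor (0 of 29) passed 2-fold.

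**Figure D4:**
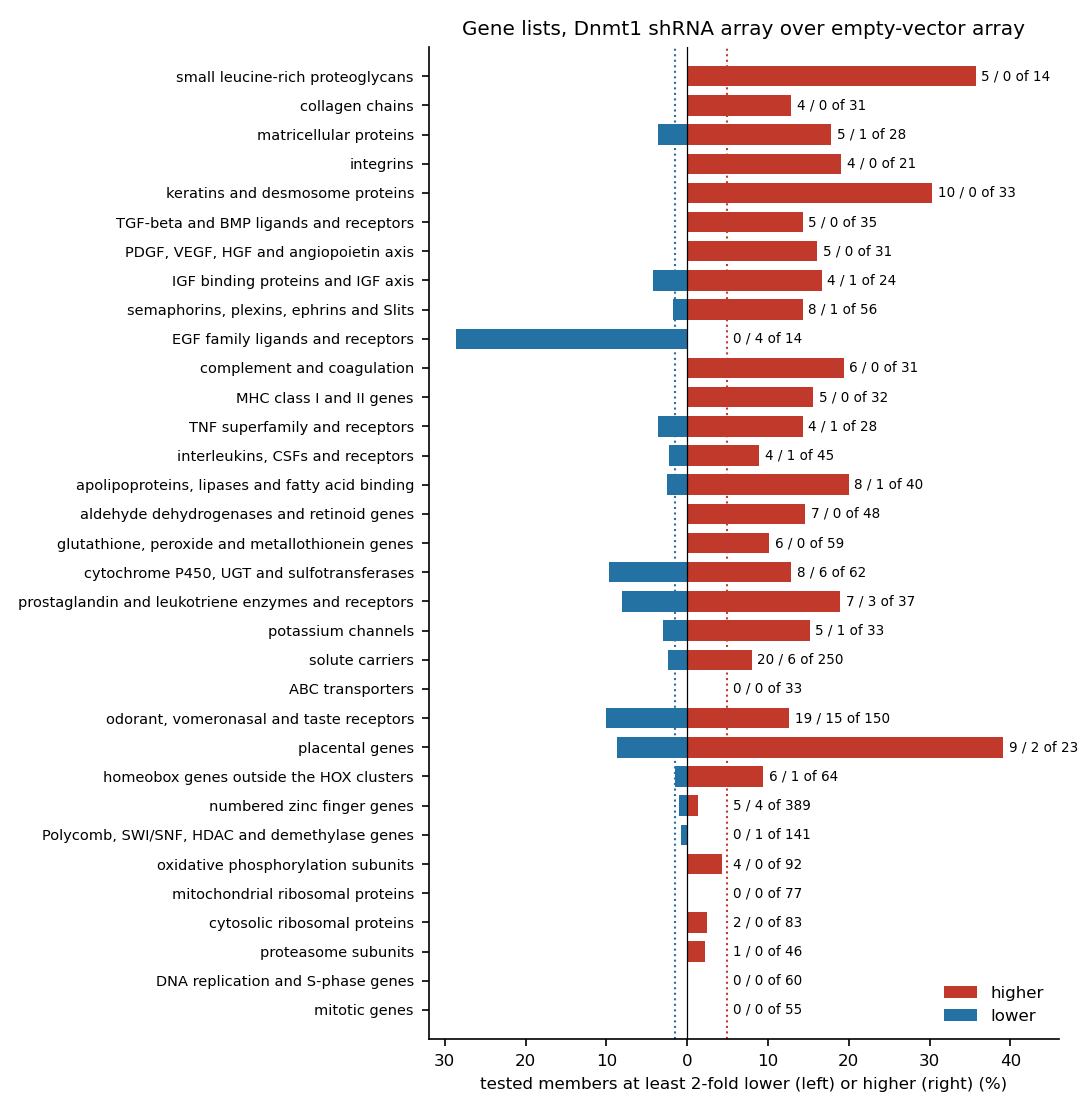
Share of tested members (x, %) at least 2-fold higher (right, red) or lower (left, blue) in the Dnmt1 shRNA culture for 33 gene lists (y), with counts higher / lower of tested beside each bar. Dotted lines mark the shares over all genes with a symbol (4.94% and 1.49%); the small leucine-rich proteoglycans (5 of 14) and placental genes (9 of 23) reach farthest right and the EGF family (4 of 14) farthest left.

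The cell's basic machinery shifted by small amounts, with few genes past 2-fold. Mitochondrial ribosomal proteins had 0 of 77 higher and 0 lower, a median of -0.20 and 65 members below 0. Mrpl12 had signals of 49749 and 31415 (log2 difference -0.50). Of 46 proteasome subunits 43 lay below 0 (median -0.19), and of the 58 DNA repair genes detected on both arrays 46 did (median -0.20), with Rad54l, a recombination factor, at 2312 and 1304 (-0.66) and Fancf at 10823 and 5997 (-0.69). Replication genes lay below 0 in 57 of 59 and mitotic genes in 53 of 55. For scale, the highest tercile of control signals, which held 64 of the mitochondrial ribosomal proteins, 40 of the proteasome subunits and 38 of the 60 replication genes, had a median of -0.09. The medians of these lists relative to all genes stayed below 0 in each of the 12 alternative settings. The heat shock protein Hsph1, which assists HSP70, was lower by both of its probes (7991 and 3123, 2.28-fold), and the small heat shock protein Hspb2, known from muscle, was higher (2709 and 8149, 3.37-fold).

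**Figure D5:**
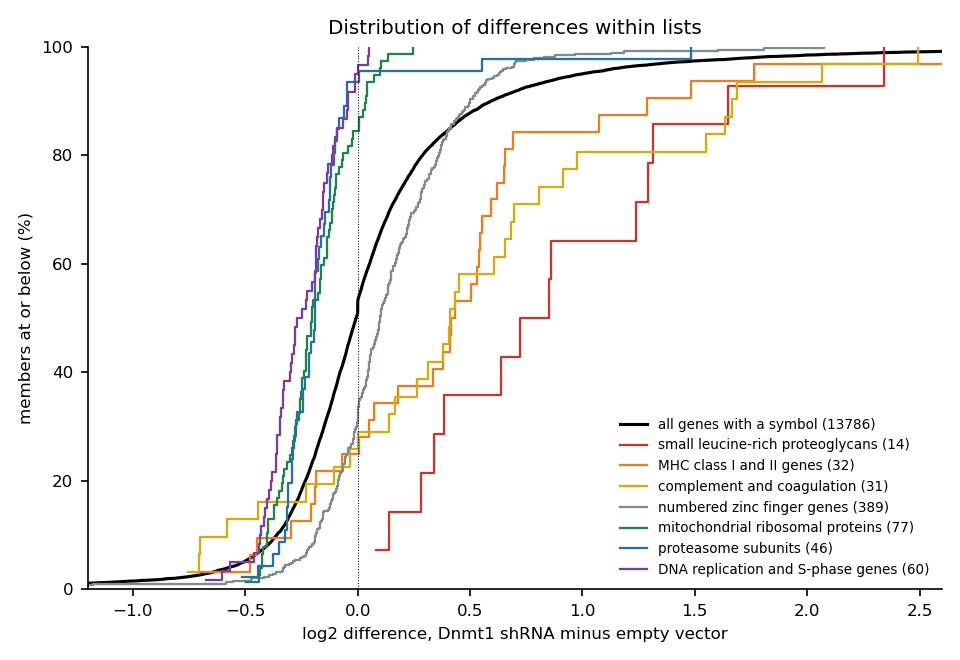
Cumulative share of members (y, %) at or below each log2 difference (x, Dnmt1 shRNA minus empty vector) for 7 gene lists and for all 13786 genes with a symbol (black). The curves of the proteasome, mitochondrial ribosomal and replication genes lie left of the black curve, and those of the small leucine-rich proteoglycans, MHC and complement genes lie right of it through their middle.

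Different probes of one gene give a check within the arrays. Of 3134 genes with at least 2 probes on both arrays, 26 were at least 2-fold higher by every probe and 3 lower. Besides those above, the higher genes included the hair-bundle protein Espn (55.2 and 266, 5.39-fold), the actin regulator Kank3 (639 and 1869, 3.28-fold), Rgs4, which turns off G-protein signals (64.2 and 209, 3.66-fold), and the osteocalcin relative Bglap3 (299.6 and 959, 3.59-fold). The 3 lower genes were Hsph1, the adenovirus receptor and junction protein Cxadr (2557 and 1112, 2.05-fold) and involucrin (Ivl, 83.2 and 34.4, 2.16-fold). Probes did not always stand together: those of Atp9a, a lipid flippase, gave -0.14 and 2.44, and the 2 of Cdkn1a, the p53-induced cell cycle inhibitor, 0.71 and 1.87.

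Grouped by symbol stem, 10 of 461 families with at least 5 tested genes had 30% or more of their members higher, and 0 had as many lower. Among them were the germline family Rhox (8 of 15), Krt (8 of 23), Mmp (3 of 10) and Cxcl (3 of 9). The others were Gdf (3 of 8), Apol and Dlx (2 of 6 each) and Gjb, Lhx and Pgm (2 of 5 each). Cxcl, Gjb and Mmp also had 1 gene lower each. Over all genes with a symbol 4.94% were higher. In 278 of the 461 families no member was counted in either direction. In the Apol, Dlx and Pgm families each higher gene was under 2-fold in at least 1 alternative setting. The same held for some of the higher genes in the Gdf, Gjb, Krt and Mmp families.

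Along the chromosomes the X held the largest share of higher genes among chromosomes with over 100 tested genes, 56 of 483 (11.6%), and the other such chromosomes held 2.71% to 7.32%. Of the 56, 19 were on the list of cancer-testis genes of the X, genes of the germ line set aside here, and of the 441 X-linked genes on no germline list 37 were higher (8.39%). With the runs of neighbours described below also left out, 31 of 435 were higher (7.13%), within the range of the other chromosomes. The genes of those runs on the X are higher by definition. Of 7 tested genes on the Y chromosome 4 were higher and 0 lower. The 4 were Usp9y, Rbmy, Sly and Gm20736, and both probes of Rbmy were below background in the control (8.37 and 8.16). Runs of 3 or more tested neighbours that differed the same way numbered 10, of which 9 were higher; 6 of these lay on the X and 1 on the Y. Those on other chromosomes were Fam25c, Sncg and Mmrn2 on chromosome 14 and the odorant receptors Olfr1193, Olfr1221 and Olfr1225 on chromosome 2, all 3 of which were below background in the control. On chromosome 14, Fam25c had signals of 95.5 and 173 (2.04-fold), Sncg, a synuclein, 93.5 and 1877 (22.5-fold) and Mmrn2, an endothelial matrix protein, 135 and 551 (4.58-fold). On the X, ferritin-like genes Fthl17d, Fthl17e and Fthl17f had lower bounds of 2.55-fold, 2.36-fold and 4.97-fold higher; near-identical copies in such clusters may share probe signal.

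Among the lower genes most were dim with Dnmt1 shRNA. Of the 205 with a symbol, 97 were detected on both arrays and 108 had only a bound. Measured on both arrays, Tspan11, a tetraspanin, went from 435 to 42.5 (9.14-fold lower), Mpped2, a phosphodiesterase, from 801 to 197 (3.62-fold) and carbonic anhydrase 2 (Car2) from 314 to 77.7 (3.60-fold). The monoamine oxidase Maob had 594 and 151 (3.51-fold), the sugar epimerase Galm 614 and 176 (3.12-fold) and the lipoprotein Apom 202 and 52.2 (3.45-fold). Pygl, the liver glycogen phosphorylase, had the largest bound of the lower genes at 526 and 13.8 (at least 18.7-fold).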

How the data were processed

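Scanner output came from Agilent Feature Extraction (version 10.7.3.1), a tool named in the submitters' processing notes. The processed signal that the authors deposited is a linear intensity already corrected for background, per the file headers; the same software set the flags, marks of 0 or 1, for signal well above background, outliers and saturation. Of 44397 spots an array 43020 were not controls; 228 outlier spots of the control array and 235 of the Dnmt1 shRNA array were left out, and no spot was saturated. Log2 signals were averaged over the spots of a probe and each array's 75th percentile was subtracted. Probes counted if well above background on at least 1 array, a gene's difference is the mean over its counted probes, and a dim gene was set at the higher of the array's lowest signal well above background and its own signal. A gene in which some probes are dim on 1 array mixes measured and bound values. Because each group has 1 array, the number of arrays limits the precision and no test was made. Both arrays were on the same slide and scan; the series' remaining array is not analysed here.

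Probes were named by unversioned RefSeq accession through a table of GRCm38.p6 genes: 26412 of 39429 matched 1 symbol and 13017 none. The array design names another build, so the table gave names, chromosomes and gene order, and RefSeq gave the promoter windows, with the window of most CpG taken where a gene had several. The 105 gene lists, and the members described, were chosen with earlier results of these data known. Named genes are Dnmt1, Rb1 and Atm; up to 4 counted members of each list with the largest difference, or the 2 largest where none counted; the 25 highest and 25 lowest genes measured on both arrays; the 10 largest bounds each way; up to 15 genes each way by all of several probes; families with 30% counted one way; and the genes of runs. Cell type markers given by their detection, and the genes of the closing observations, fall outside that rule and were chosen after their values were seen. Some genes that the rule names are not reported here. The scripts (Python 3.11.15, numpy 2.4.6, pandas 2.3.3, and R 4.3.3 with limma 3.58.1 for the alternatives) were tested on simulated data. The alternatives changed the treatment of dim signals, the filter, the scaling, the background, the choice of probe, the outliers and the source of the values. Normexp, with an offset of 50, used the median spot signal and local background, in place of the mean signal that had been planned. The deposited series matrix repeats these intensities, within 0.495% of each processed signal, with column medians of 75.2 and 80.4.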

Additional observations from a re-analysis of the deposited data

How the results depend on the processing

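No paired analysis was possible because each group has 1 array. Counts of genes at least 2-fold higher and lower, 893 and 339 as reported, were 1486 higher with dim signals as measured, 558 and 154 over probes that both arrays detected, 1965 and 1139 without a filter, and 571 and 86 with normexp; 536 were lower with scaling to the array median, of which 339 are the reported ones. All 893 higher genes were among the 1486. In these alternatives the number tested changes with the filter (17258 on both arrays, 32529 without a filter), and normexp's offset of 50 shrinks differences of dim genes; otherwise the cause was not tested. The share of CpG-poor genes that were higher was 21.7% with dim signals as measured and 10.3% over probes above background on both arrays, that of intermediate genes 6.47% and 3.11%, and that of CpG-rich genes 2.77% and 1.097%, so the order of the classes held in both. The share of CpG-poor genes that were lower was 5.13% with dim signals as measured, 1.37% over probes above background on both arrays and 2.99% with a common detection level, and that of intermediate genes 0.88% over probes above background on both arrays.

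Of the 105 list medians 69 took the other sign under at least 1 alternative, 46 with scaling to the array median and 43 without a filter. Taken relative to the median of all genes, 42 took the other sign under at least 1 alternative and 0 with scaling to the array median. Of the 30 medians at least 0.2 in size 9 changed sign. Without a filter, which brings in members dim on both arrays, keratins and desmosome proteins stood at -0.028, chitinase-like and defensin genes at -0.39, endothelial markers at -0.11, placental genes at -0.35, male accessory genes at -0.39 and X-linked cancer-testis genes at -0.019. With scaling to the array median, which lowers the median of all genes to -0.24, metalloproteinases stood at -0.0013, fat, cartilage and bone genes at -0.036 and imprinted genes at -0.012. Zbtb49, 1 of the 4 lower zinc finger genes, stood at 0.20 with outlier spots kept. Of 343 named genes at least 2-fold different, 230 stayed so under each alternative that gave a value, and 99 of the other 113 were under 2-fold with normexp. Dim signals limit these arrays: 1041 of the 13786 genes with a symbol were above background on the Dnmt1 shRNA array alone and 164 on the empty-vector array alone. The lowest signal well above background was 37.8 in the control and 25.1 with Dnmt1 shRNA, and negative control spots had medians of 8.48 and 5.42. With a common detection level 893 genes and transcripts were higher and 269 lower. The part of the background difference in the 1041 and 164 was not tested.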

Other observations

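Several of the higher genes are known from the mesothelium, the epithelium-like lining of body cavities, and a list of 22 such genes was written after these values were seen, so its counts only describe the arrays. Of 18 tested, 12 were higher and 0 lower (median log2 difference 1.48), and 11 were above background in the control and 18 with Dnmt1 shRNA. Over all genes with a symbol 4.94% were higher and 1.49% lower. The members dim in the control were tested only because of the Dnmt1 shRNA array and could not be counted as lower. Some members, among them Krt8, Krt18, Igfbp6 and Aldh1a1, also belong to lists counted above. Upk3b, a uroplakin of mesothelium, had signals of 57.0 and 801 (15.8-fold higher), Wt1, a transcription factor of mesothelium and kidney, 8.85, below detection, and 167 (at least 4.95-fold), and the other uroplakin of the list, Upk1b, was at least 4.46-fold higher. Nkain4 went from 2921 to 6563 (2.52-fold) and Cldn15 from 76.1 to 155 (2.29-fold). Msln (mesothelin), a defining marker, was already well expressed at 5510 and 7690 (1.57-fold), and Krt19 had 5351 and 4094 (log2 difference -0.22). Efemp1 and Slpi also differed by less than 2-fold. The part of such cells in the other differences was not tested.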
